A study of Homo sapiens with 8 samples.

Results

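The 39 genes examined here encode the machinery of homologous recombination and of the Fanconi anemia pathway, and all 39 symbols of that list were found among the 21059 genes of the table. Their transcripts were quantified in MDA-MB-157 cells, an established human breast cancer line without the estrogen receptor, by RNA sequencing. Serum-free culture lasted 48 hours at a glucose level of 5 mM (low glucose, libraries LG1 to LG4) or 25 mM (high glucose, libraries HG1 to HG4), the latter being a model of diabetic hyperglycemia. All 8 libraries come from 1 line, no osmotic control is among them, and the labels do not say whether replicates were separate cultures, so that p-values measure only the spread between these libraries. Values are CPM, counts per 1000000 reads, to which the authors applied TMM factors (trimmed mean of M values).

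Homologous recombination repairs a DNA double-strand break by copying the sister chromatid, and it is therefore used mainly in S and G2 phase. The broken ends are sensed by the MRE11-RAD50-NBN complex and by the kinase ATM and trimmed back to single strands, on which BRCA2 and PALB2, with the help of BRCA1-BARD1, prepare the search for the matching sequence. The Fanconi pathway adds ubiquitin to FANCD2 and FANCI when a fork meets an interstrand crosslink, and hands the lesion to nucleases and to the same recombination proteins, and inherited loss of BRCA1, BRCA2 or PALB2 predisposes to breast cancer.

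Depth was estimated at 10389651 to 12104244 reads in the low glucose libraries and at 9721649 to 12482542 reads in those of high glucose, where 3 reads, the limit that a count of 0 allows, correspond to 0.212 to 0.267 CPM. All 39 genes had a mean of at least 1 CPM, 36 of them of at least 5 CPM, so that none was limited by detection. Of the markers of the line, the summed CPM of 6 mesenchymal genes was 29576 to 30264 at low and 18122 to 18700 at high glucose. Most of this sum was SPARC, whose mean was 21705 CPM in the low and 12226 CPM in the high glucose libraries, and VIM and FN1 were lower as well, whereas CD44, AXL and ZEB1 were higher with log2 changes of 0.25, 0.49 and 0.44 (adjusted p = 0.00131, 7.99e-05 and 0.00541). ESR1, the estrogen receptor, and PTPRC, the pan-leukocyte marker, stayed under the value of 3 reads in every library, as did KRT19 and LYZ. Some other genes of these luminal and leukocyte lists were expressed, whereas CDH1, at 0.330 to 1.41 CPM, and ELF3, at 0.0889 to 0.595 CPM, were low. Of the 5 leukocyte genes listed, 3 were in the table. The leukocyte marker CD68 was at 9.38 to 13.3 CPM at low and 10.4 to 14.3 CPM at high glucose. Of the luminal markers, KRT8 had means of 131 and 88.3 CPM at low and high glucose, and KRT18 of 233 and 170 CPM. PGR had means of 4.76 and 5.35 CPM. In contrast to the keratins, EPCAM was higher, at 3.93 to 4.93 CPM at low and 6.58 to 7.62 CPM at high glucose (log2 change 0.54, adjusted p = 0.00104). GATA3 was higher too, with means of 0.123 and 1.09 CPM (log2 change 0.89, adjusted p = 4.66e-04). A proliferation score has 11 genes, such as MKI67, CCNB1 and RRM2. Their summed CPM was 663 to 703 at low and 1013 to 1056 at high glucose. Of the 11 genes 10 were higher (adjusted p under 0.05), as were 22.0% of all genes and 29.5% of those of at least 1 CPM. The paper reports that high glucose did not enhance proliferation, measured by BrdU incorporation in lines that include this one. The values here are RNA levels, and growth was not measured in these libraries. Many recombination genes are expressed with the cell cycle, and whether the changes below go with those of the proliferation genes was not tested. In these bulk libraries fewer cells that express a gene and less RNA per cell cannot be told apart.

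One library stood apart from its group along transcript length. HG1 was set against the mean of HG2 to HG4, and over 11223 genes of at least 5 CPM its log2 difference had a Spearman correlation of -0.65 with the length of the canonical transcript, against -0.67 over 36 of the recombination and Fanconi genes. These are correlations across genes that share the same 4 libraries, given as a description. Of the 16 listed genes with transcripts over 5000 bases, 14 were lower in HG1 than in the other high glucose libraries, with a median difference of -0.26 (log2). By contrast, 7 of 18 genes between 2000 and 5000 bases and 0 of 5 genes under 2000 bases were lower, the latter with a median of 0.21. The listed genes have long transcripts, with a median of 4592 bases against 3437 bases over all genes of at least 5 CPM. The counts over the 39 genes, by role and over the further pathway genes at an adjusted p under 0.05 are therefore also given without HG1.

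**Figure D1:**
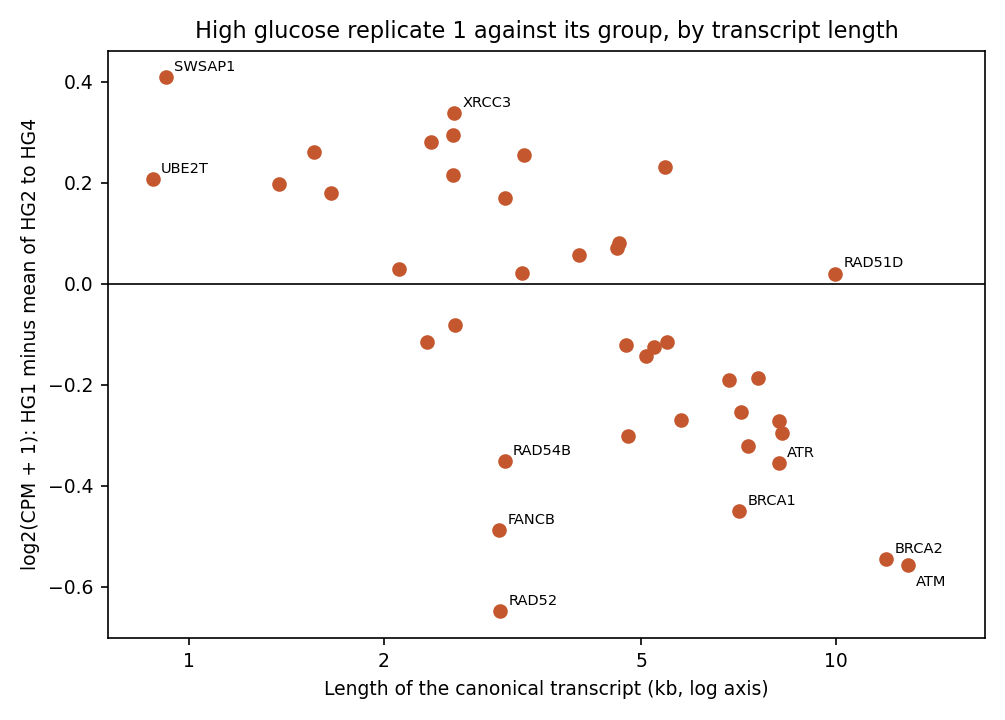
Each of the 39 points is a gene, with the length of its canonical transcript in kilobases (log axis) and, on the vertical axis, log2(CPM + 1) in HG1 minus the mean of HG2 to HG4. Transcripts over 5000 bases lie mostly below 0, with BRCA2 and ATM at the far right, and the 5 shortest lie above 0.

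Between the glucose levels, 19 of the 39 genes differed at an adjusted p under 0.05, or 48.7% (limma on log2(CPM + 1), 2-sided, adjusted over all genes). Over all genes tested 46.8% passed, and over genes of at least 1 CPM, which is the level of all listed genes, 62.1% passed, so that the share of the 39 genes was close to that of all genes and under that of genes of like level. Higher at high glucose were 9 of the genes (23.1%, against 22.0% of all genes and 29.5% of genes of at least 1 CPM), and lower were 10 (25.6%, against 24.8% and 32.6%). Without HG1, 21 genes passed, 11 higher and 10 lower, where 48.2% of all genes passed, with 22.8% higher and 25.4% lower. For genes of at least 1 CPM these shares were 65.0%, 30.8% and 34.2%. The median log2 change of the 39 genes was 0.00021 with 8 libraries and 0.043 without HG1, and over all genes it was -0.0092 and -0.013. Their median absolute log2 change was 0.26, against 0.25 over all genes and 0.36 over genes of at least 1 CPM.

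The 4 high glucose libraries lay entirely on one side of the 4 low glucose libraries for 18 of the 39 genes, where 44.5% of all genes and 60.0% of genes of at least 1 CPM did so. Without HG1 this held for 22 genes, against 51.0% of all genes and 68.0% of genes of at least 1 CPM. At the looser threshold of 0.3 that the study used, 28 genes passed (71.8%), against 66.8% of all genes. The share of genes of at least 1 CPM is not given at this threshold, so the count cannot be read as a trait of these genes. Described by role, changes in opposite directions occurred within most groups. Over all genes 22.0% were higher and 24.8% lower, and over genes of at least 1 CPM 29.5% and 32.6%. Without HG1 these shares were 22.8% and 25.4%, and 30.8% and 34.2%. Both directions were thus common among all genes, and with 2 to 9 genes a group the counts by role are a description only. Among BRCA1, BRCA2 and their partners 1 of 6 genes was higher and 1 lower, and without HG1 3 were higher and 1 lower, the added genes being BRCA1 and BRCA2. The counts of the other groups were the same without HG1. Of the sensing, resection and checkpoint genes 2 of 7 were higher and 4 lower, of the recombination mediators 1 of 8 was higher and 2 lower, and of the motors, helicases and nucleases 2 of 7 were lower. In the Fanconi core complex with its E2 enzyme 4 of 9 were higher and 1 lower, and 1 of the 2 genes of the FANCD2-FANCI complex was higher.

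**Figure D2:**
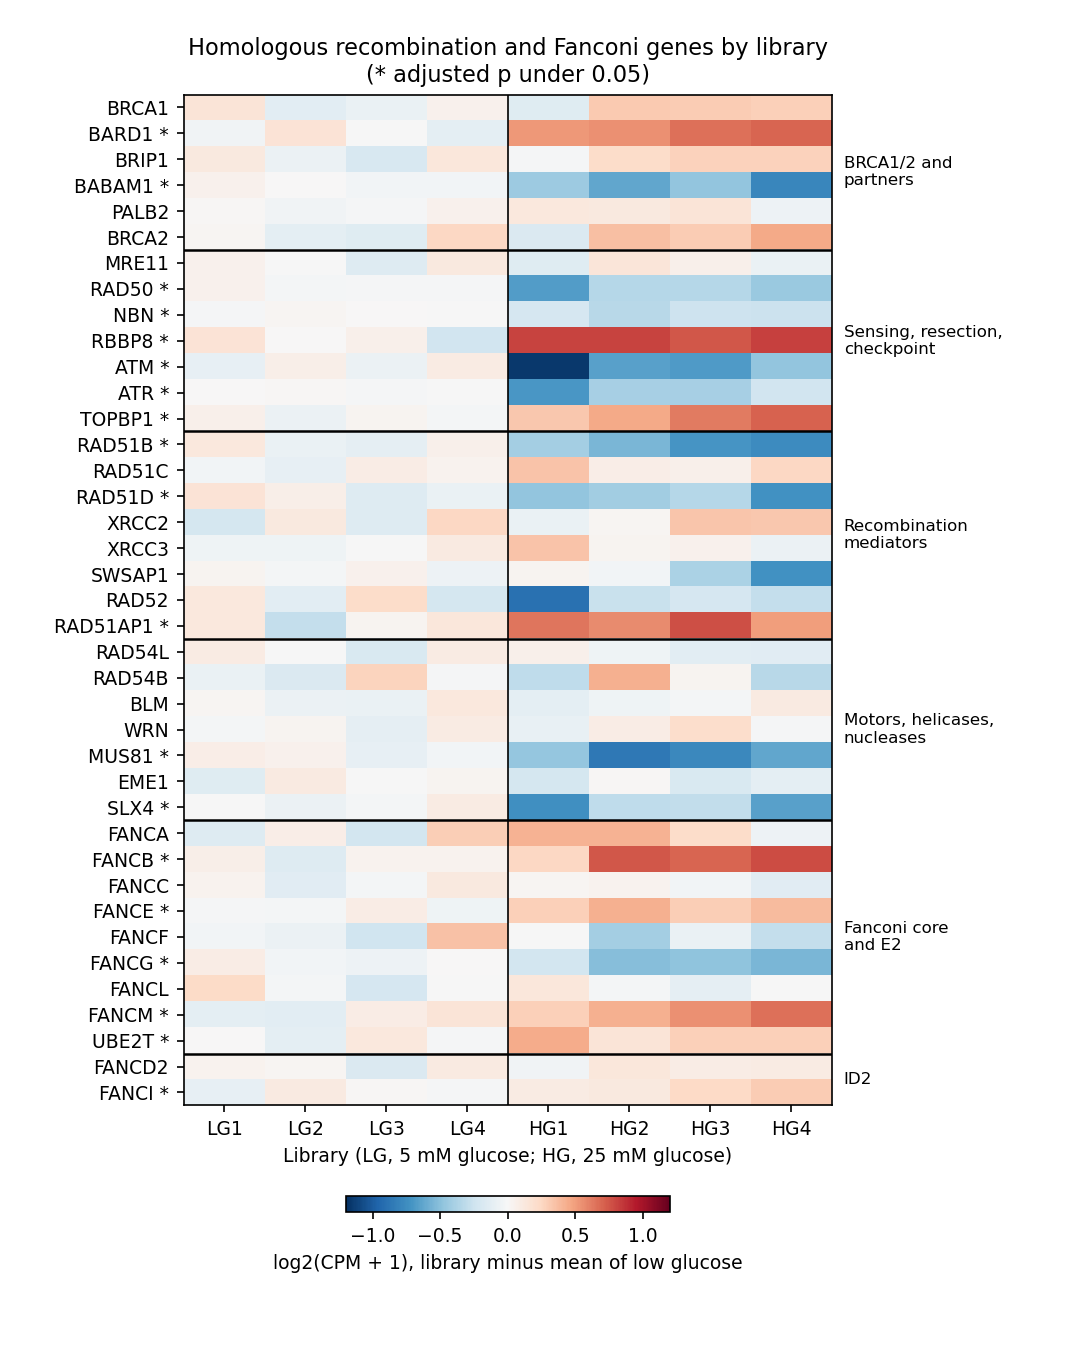
Rows are the 39 genes in groups of role and columns are the 8 libraries. Color gives log2(CPM + 1) minus the mean of the 4 low glucose libraries, and an asterisk marks an adjusted p under 0.05. Among the sensing genes the red row of RBBP8 stands with the blue rows of ATM and ATR, and among the partners of BRCA1 the red row of BARD1 with the blue row of BABAM1.

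**Figure D3:**
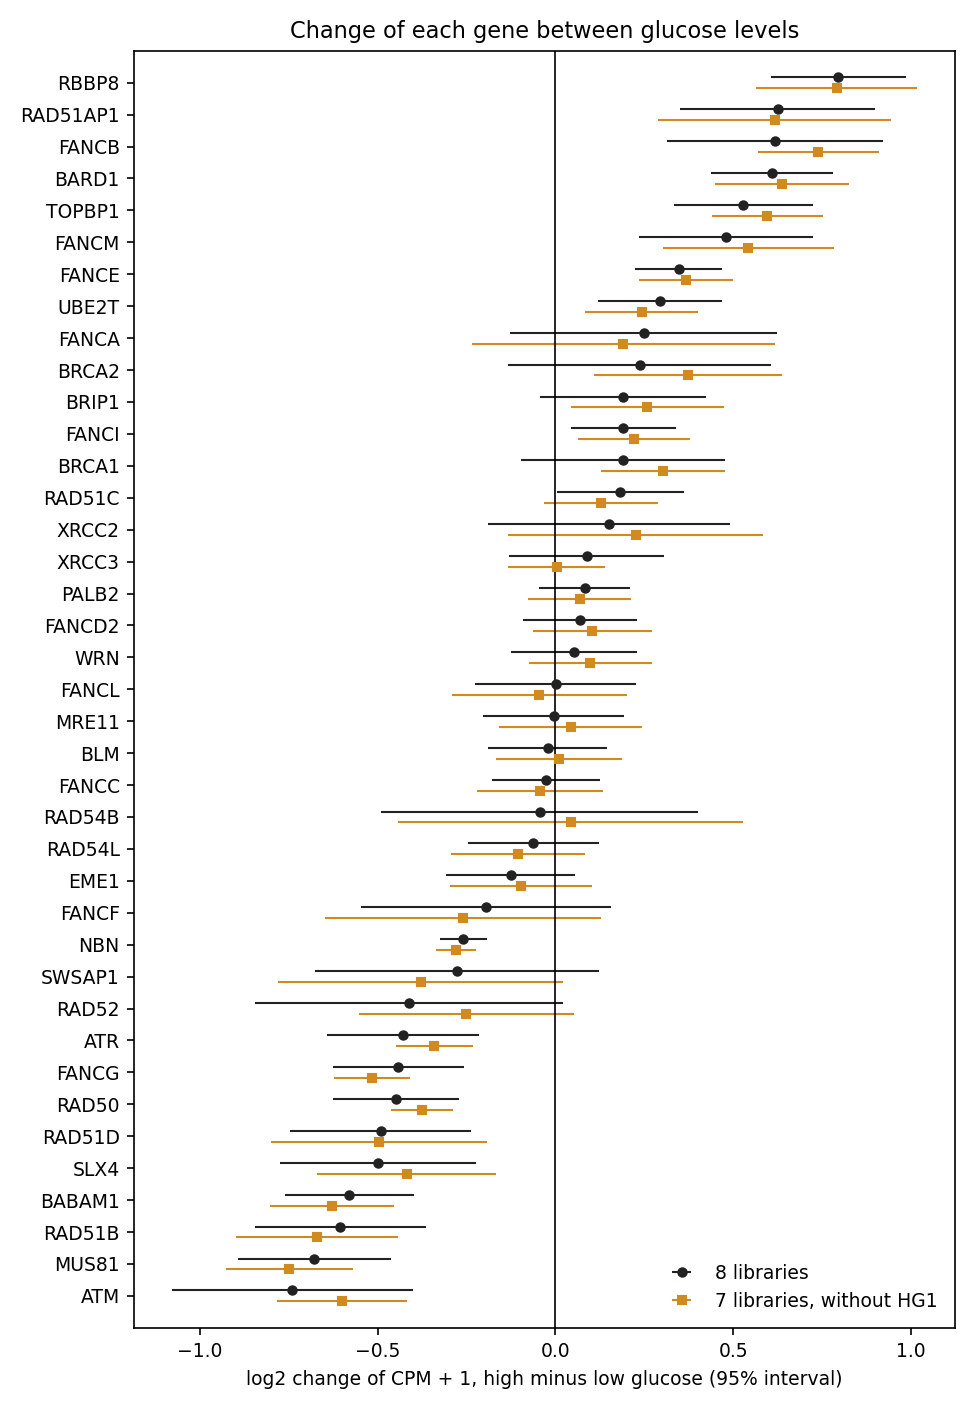
For each gene the point gives the log2 change of CPM + 1, high minus low glucose, and the bar its 95% interval, with 8 libraries (black) and without HG1 (orange). The estimates run from -0.74 for ATM to 0.80 for RBBP8, and the intervals of BRCA1 and BRCA2 leave 0 only without HG1.

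BRCA1, which with BARD1 forms a ubiquitin ligase that promotes end resection (ENSG00000012048.22, GRCh38.p14, chromosome 17, 43044295 to 43170327), was at 19.6, 16.0, 16.6 and 18.3 CPM in LG1 to LG4 and at 15.7, 22.1, 21.9 and 21.6 CPM in HG1 to HG4. HG1 was the lowest of all 8 libraries, and the other 3 high glucose libraries lay above every low glucose library. The log2 change was 0.19 ± 0.12 (SE, adjusted p = 0.251) with 8 libraries and 0.30 ± 0.07 (adjusted p = 0.0143) without HG1. With the trend of each library on transcript length removed, it was 0.18 (adjusted p = 0.0761).

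For BRCA2 (ENSG00000139618.14, chromosome 13, 32315077 to 32400268), a mediator of strand exchange, the values were 9.002, 8.12, 7.90 and 10.7 CPM at low and 7.76, 11.6, 11.2 and 12.5 CPM at high glucose, in the same order. Again HG1 was the lowest library of the 8 and the other high glucose libraries the highest. Its log2 change was 0.24 ± 0.16 (adjusted p = 0.268), and without HG1 it was 0.37 ± 0.11 (adjusted p = 0.0304). After removal of the length trend BRCA2 passed with all 8 libraries, at 0.26 (adjusted p = 0.0382). Both genes had higher means at high glucose, and their calls depended on HG1.

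The partner of BRCA1, BARD1 (ENSG00000138376.11, chromosome 2, 214725646 to 214809683), was at 12.7, 14.8, 13.1 and 12.0 CPM at low and 19.3, 19.6, 21.4 and 22.0 CPM at high glucose, with no overlap between the groups. The mean rose by 56.3%, a log2 change of 0.61 ± 0.07 (adjusted p = 4.14e-04). BABAM1 (ENSG00000105393.16, chromosome 19, 17267443 to 17279337), a scaffold subunit of the BRCA1-A complex that restrains resection at ubiquitylated breaks, moved in the opposite direction. It was at 85.6, 83.1, 80.9 and 80.9 CPM at low and 61.0, 53.2, 59.1 and 47.5 CPM at high glucose, again without overlap, and its mean fell by 33.2% (log2 change -0.58 ± 0.08, adjusted p = 7.01e-04). Of the 31-base words of the BABAM1 transcript 56.9% also occur in a readthrough gene annotated at the same place. The origin of the BABAM1 reads is therefore in part uncertain. The promoters of this oppositely changed pair are shown from 250 bases before to 30 bases after the start of the gene, 5′ to 3′ (RefSeq, GRCh38.p14), with capitals for the CCAAT and ETS motif letters described further on.
BARD1 (chr2:214809654-214809933, minus strand): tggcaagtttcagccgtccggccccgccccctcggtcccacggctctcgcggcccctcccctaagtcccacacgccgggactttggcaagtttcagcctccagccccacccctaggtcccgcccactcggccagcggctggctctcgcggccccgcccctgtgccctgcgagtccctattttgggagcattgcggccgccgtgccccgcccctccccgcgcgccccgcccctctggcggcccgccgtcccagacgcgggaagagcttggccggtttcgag
BABAM1 (chr19:17267193-17267472, plus strand): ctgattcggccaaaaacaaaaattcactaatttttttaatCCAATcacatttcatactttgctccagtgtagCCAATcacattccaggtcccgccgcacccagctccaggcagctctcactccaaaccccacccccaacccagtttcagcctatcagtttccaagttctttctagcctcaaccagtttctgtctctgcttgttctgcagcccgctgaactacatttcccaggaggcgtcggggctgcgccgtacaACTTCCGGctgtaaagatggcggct

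BARD1 holds none of the searched motifs in this window, whereas BABAM1 holds 2 copies of CCAAT and 1 ETS match. The remaining partners did not pass. BRIP1, the helicase that binds the BRCT repeats of BRCA1, had means of 23.3 ± 2.64 and 26.7 ± 2.55 CPM, where the error of a mean is the SD over 4 libraries here and in the following, and the first value is that at low glucose. Its log2 change was 0.19 (adjusted p = 0.162), and its groups did not overlap once HG1 was left out (adjusted p = 0.0538). PALB2, the bridge between BRCA1 and BRCA2, was at 17.2 ± 0.543 and 18.3 ± 1.26 CPM, with a 95% interval of the log2 change from -0.05 to 0.21.

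**Figure D4:**
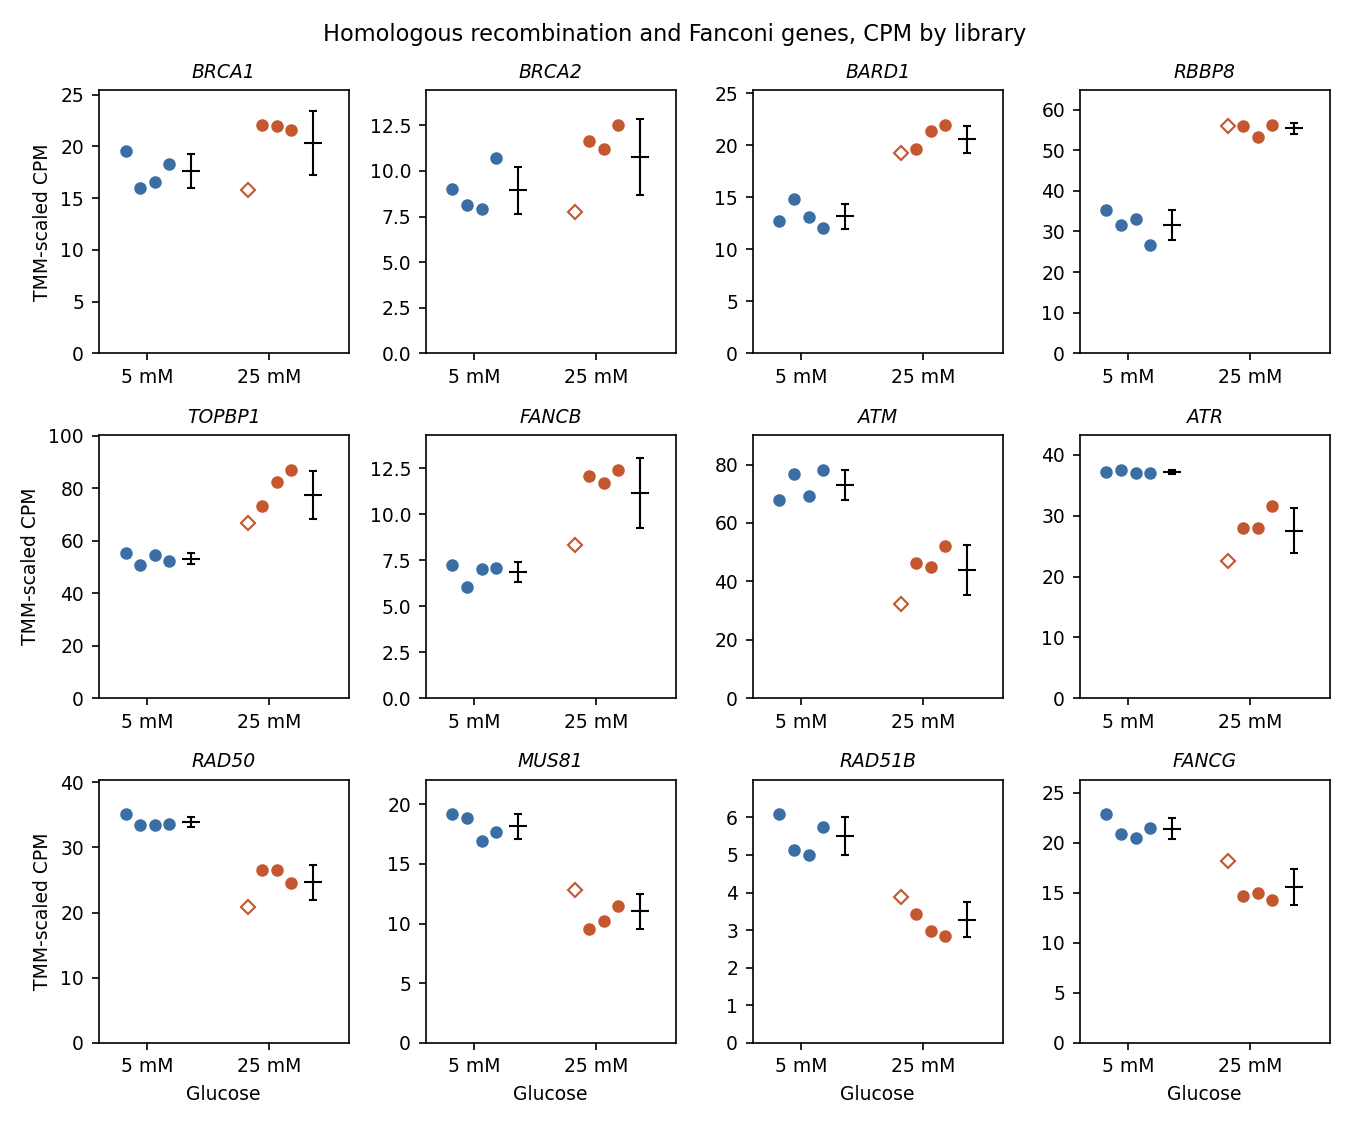
Each panel gives the TMM-scaled CPM of a gene in the 4 libraries at 5 mM (blue) and the 4 at 25 mM glucose (orange), with HG1 as an open diamond and bars for the mean and SD. In BRCA1 and BRCA2 the diamond lies with or under the low glucose points and the other 3 lie above them, whereas the groups of the other 10 genes do not overlap.

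In the group of sensing, resection and checkpoint genes, RBBP8 had the largest change of all 39. RBBP8 encodes CtIP, the cofactor of MRE11 that starts end resection (ENSG00000101773.19, chromosome 18, 22914139 to 23026486). It was at 35.3, 31.6, 32.96 and 26.7 CPM at low and 56.0, 56.0, 53.3 and 56.3 CPM at high glucose, so that every high glucose library exceeded every low glucose library. The mean rose by 75.1% (log2 change 0.80 ± 0.08, adjusted p = 1.86e-04), and without HG1 the log2 change was 0.79.

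The MRE11-RAD50-NBN complex, which tethers broken ends and activates ATM, was lower at high glucose in 2 of its 3 genes. RAD50 (ENSG00000113522.14, chromosome 5, 132556977 to 132646349), the SMC-like ATPase, was at 35.1, 33.4, 33.5 and 33.6 CPM at low and 20.9, 26.6, 26.6 and 24.6 CPM at high glucose, and its mean fell by 27.2% (log2 change -0.45 ± 0.08, adjusted p = 0.00228). For NBN (ENSG00000104320.13), the adaptor subunit, the values were 90.9, 93.4, 92.2 and 91.3 CPM at low and 79.98, 73.0, 77.1 and 76.6 CPM at high glucose, a fall by 16.6% (log2 change -0.26 ± 0.03, adjusted p = 2.66e-04). Neither gene overlapped between the groups. MRE11, the nuclease, was at 20.6 ± 1.72 and 20.6 ± 1.98 CPM, with a 95% interval of the log2 change from -0.20 to 0.19. Of the RAD50 words 91.0% are shared with an annotated readthrough transcript that was listed separately at 0 to 4.92 CPM, and how such reads were divided is not known.

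The apical kinases fell as well. ATM (ENSG00000149311.18, chromosome 11, 108223067 to 108369102), which responds to double-strand breaks, was at 67.8, 76.7, 69.2 and 78.3 CPM at low and 32.1, 46.2, 45.0 and 52.3 CPM at high glucose. Its mean fell by 39.9% (log2 change -0.74 ± 0.14, adjusted p = 0.00456) and HG1 held the lowest value. ATR (ENSG00000175054.15, chromosome 3, 142449235 to 142578733), which responds to single-stranded DNA, was at 37.3, 37.6, 36.9 and 37.003 CPM at low and 22.6, 28.1, 28.0 and 31.6 CPM at high glucose, a fall by 25.9% (log2 change -0.43 ± 0.09, adjusted p = 0.00667). For both kinases all high glucose libraries lay under all low glucose libraries. Without HG1 the log2 changes were -0.60 for ATM (adjusted p = 9.99e-04) and -0.34 for ATR (adjusted p = 0.00116), and with the length trend removed they were -0.71 and -0.43.

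TOPBP1 (ENSG00000163781.13, chromosome 3, 133600238 to 133661941), the activator of ATR, rose while the kinase fell. It was at 55.3, 50.6, 54.4 and 52.2 CPM at low and 66.8, 73.3, 82.3 and 87.1 CPM at high glucose, with no overlap and a rise of the mean by 45.7% (log2 change 0.53 ± 0.08, adjusted p = 0.00166). The promoters of TOPBP1, which rose, and RAD50, which fell, are shown in the same way as those above, since each holds matches to a searched motif, in capitals.
TOPBP1 (chr3:133661912-133662191, minus strand): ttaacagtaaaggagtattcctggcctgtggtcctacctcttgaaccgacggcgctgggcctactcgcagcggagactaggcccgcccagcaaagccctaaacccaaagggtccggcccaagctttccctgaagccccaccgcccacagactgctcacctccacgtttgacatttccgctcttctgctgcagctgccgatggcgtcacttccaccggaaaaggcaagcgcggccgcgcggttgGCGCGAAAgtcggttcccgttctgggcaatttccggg
RAD50 (chr5:132556727-132557006, plus strand): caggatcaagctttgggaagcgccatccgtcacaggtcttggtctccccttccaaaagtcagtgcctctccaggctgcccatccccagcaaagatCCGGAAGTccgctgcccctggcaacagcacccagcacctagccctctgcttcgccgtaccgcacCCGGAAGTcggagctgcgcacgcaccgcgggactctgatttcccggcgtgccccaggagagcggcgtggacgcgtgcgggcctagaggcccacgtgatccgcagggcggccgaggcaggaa

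The capitals mark 1 E2F match in TOPBP1, on the opposite strand and next to the start, and 2 ETS matches in RAD50. Motifs were searched on both strands of the window from 250 bases before to 50 bases after the start, which RefSeq gave for 35 of the 39 genes, all but FANCI, NBN, RAD54B and WRN. Where a gene had several windows, a match in any of them counted for the gene. E2F letters (TTTCCCGC, TTTGGCGC, TTTCGCGC or TTTGCCGC) occurred in 5 of the 35 genes, 14.3%, against 6.60% of 10448 genes of at least 1 CPM with a window. The 5 genes were FANCA, FANCC, FANCD2, TOPBP1 and XRCC2. Of these, TOPBP1 alone passed the test of glucose. CCAAT occurred in 16 of 35 windows against 43.2%, and the ETS letters CCGGAAGT in 7 of 35 against 9.86%. The cell cycle element CHR (TTTGAA or TTCGAA) occurred in 4 of 35 against 15.3%. These are matches of letters and not sites shown to be bound.

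Among the recombination mediators, the results turned on 3 genes. RAD51B (ENSG00000182185.18, chromosome 14, 67819779 to 68683096), a subunit of the BCDX2 complex, was at 6.08, 5.13, 5.01 and 5.75 CPM at low and 3.88, 3.43, 2.97 and 2.84 CPM at high glucose, and its mean fell by 40.3% (log2 change -0.60 ± 0.10, adjusted p = 0.00225). RAD51AP1 (ENSG00000111247.14, chromosome 12, 4538890 to 4560047), which stimulates strand invasion, was at 4.42, 3.06, 4.08 and 4.44 CPM at low and 6.78, 6.38, 7.51 and 6.04 CPM at high glucose, and its mean rose by 66.9% (log2 change 0.62 ± 0.12, adjusted p = 0.00363). In neither gene did the groups overlap. RAD51D, a further subunit of BCDX2, fell from 9.96 ± 1.10 to 6.802 ± 0.857 CPM (log2 change -0.49, adjusted p = 0.00791). Of its words 14.6% are shared with a gene annotated at the same place, and the neighbouring gene RFFL was lower as well (log2 change -0.69, adjusted p = 1.25e-04), so that the origin of its reads is in part uncertain.

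The other BCDX2 subunits did not pass. RAD51C was at 26.5 ± 1.57 and 30.2 ± 2.99 CPM (log2 change 0.18, adjusted p = 0.0885), and with the length trend removed it passed at 0.23 (adjusted p = 0.00929). XRCC2 was at 7.27 ± 1.26 and 8.17 ± 1.31 CPM. Of the remaining mediators, XRCC3, the partner of RAD51C in the CX3 complex, was at 14.4 and 15.4 CPM, with an interval of the log2 change from -0.13 to 0.30. SWSAP1, a subunit of the Shu complex, was at 2.72 and 2.14 CPM, and RAD52, the annealing protein, at 3.40 and 2.34 CPM (log2 change -0.41, adjusted p = 0.109). For RAD52 the value in HG1 was 1.34 CPM against 2.58 to 2.80 CPM in the other high glucose libraries, and without it the log2 change was -0.25.

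In the group of strand exchange motors, helicases and nucleases, the genes that passed were MUS81 and the nuclease scaffold SLX4. MUS81 (ENSG00000172732.12, chromosome 11, 65859674 to 65867653), the catalytic subunit of a nuclease that cuts branched intermediates, was at 19.2, 18.9, 16.9 and 17.7 CPM at low and 12.8, 9.57, 10.2 and 11.5 CPM at high glucose. The groups did not overlap, and the mean fell by 39.3% (log2 change -0.68 ± 0.09, adjusted p = 7.64e-04). SLX4, the scaffold that holds MUS81 and other nucleases, fell from 11.9 ± 0.670 to 8.20 ± 1.45 CPM (log2 change -0.50, adjusted p = 0.0104). EME1, the noncatalytic partner of MUS81, was at 9.01 ± 0.731 and 8.17 ± 0.648 CPM, which did not pass (log2 change -0.13, adjusted p = 0.229).

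Means of the motors and helicases lay close together. RAD54L, a translocase that supports strand exchange, was at 18.9 and 18.1 CPM, and its paralog RAD54B at 12.4 and 12.2 CPM. BLM, the Bloom syndrome helicase that dissolves double Holliday junctions, was at 9.29 and 9.13 CPM, and WRN, the Werner syndrome helicase, at 23.2 and 24.1 CPM. None passed, and the 95% intervals of the log2 change ran from -0.25 to 0.12 for RAD54L, -0.19 to 0.14 for BLM and -0.13 to 0.23 for WRN. For RAD54B the interval was wider, from -0.49 to 0.40, and 65.2% of its words are shared with FSBP, which lies in the same locus.

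Of the Fanconi core complex, the ubiquitin ligase that acts on FANCD2 and FANCI, FANCB and FANCE rose. FANCB (ENSG00000181544.15, chromosome X, 14689524 to 14873069), a subunit of the catalytic module, was at 7.25, 6.05, 7.05 and 7.07 CPM at low and 8.33, 12.1, 11.7 and 12.4 CPM at high glucose. The groups did not overlap, HG1 was the lowest of its group, and the log2 change was 0.62 ± 0.13 (adjusted p = 0.00622), or 0.74 without HG1 (adjusted p = 2.95e-04). FANCE (ENSG00000112039.4, chromosome 6, 35452338 to 35467102), which links the ligase to FANCD2, was at 9.50, 9.44, 10.3 and 9.25 CPM at low and 11.9, 13.2, 12.0 and 12.8 CPM at high glucose. It did not overlap either, and its mean rose by 29.97% (log2 change 0.35 ± 0.05, adjusted p = 0.0013).

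Opposite changes were also found within the complex. FANCG (ENSG00000221829.9, chromosome 9, 35073839 to 35079942), a scaffold bound to FANCA, was at 22.8, 20.9, 20.5 and 21.4 CPM at low and 18.2, 14.7, 15.0 and 14.3 CPM at high glucose, so that all high glucose libraries were lower. Its mean fell by 27.3% (log2 change -0.44 ± 0.08, adjusted p = 0.00295). FANCM, the translocase that recruits the complex to forks, rose from 8.52 ± 0.936 to 12.3 ± 1.45 CPM (log2 change 0.48, adjusted p = 0.00733). UBE2T, the E2 enzyme that delivers the ubiquitin, rose from 30.03 ± 2.18 to 37.1 ± 3.21 CPM (log2 change 0.29, adjusted p = 0.0144). FANCL, the RING subunit that pairs with UBE2T, was at 17.2 ± 2.27 and 17.1 ± 1.27 CPM, with an interval of the log2 change from -0.23 to 0.23.

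The other core subunits did not pass. FANCA, which binds FANCG, was at 4.66 ± 0.948 and 5.71 ± 1.02 CPM, FANCC, which binds FANCE, at 37.4 ± 2.84 and 36.7 ± 2.14 CPM, and FANCF, the adaptor of the core, at 7.82 ± 1.60 and 6.65 ± 0.970 CPM. Of the targets of the ligase, FANCI rose from 34.9 ± 2.20 to 40.005 ± 2.81 CPM (log2 change 0.19, adjusted p = 0.041), although HG1 at 37.4 CPM lay under LG2 at 37.7 CPM, and it passed in 12 of 19 alternative fits. FANCD2 was at 43.5 ± 3.70 and 45.6 ± 2.37 CPM, with an interval of the log2 change from -0.09 to 0.23.

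Levels of different genes were compared as CPM per kilobase of the canonical transcript. At low glucose they ran from 0.747 for BRCA2 to 60.0 for BABAM1, with UBE2T at 34.2 and NBN at 19.9 next to BABAM1, and FANCA at 0.854 and RAD51D at 0.999 next to BRCA2. At high glucose BABAM1 was at 40.1 and UBE2T at 42.2 CPM per kilobase. BRCA1 and BARD1, which bind each other, were at 2.48 and 2.40 CPM per kilobase at low and 2.87 and 3.75 at high glucose. For MUS81 and EME1 the levels were 7.68 and 3.87 CPM per kilobase at low and 4.66 and 3.51 at high glucose. For the ATR kinase and its activator TOPBP1 they were 4.56 and 9.22 at low and 3.38 and 13.4 at high glucose. Between 23.2% and 34.2% of the transcript bases of XRCC3, SWSAP1, FANCA, FANCL, RAD54L and EME1 overlap exons of opposite-strand genes. Whether reads were counted by strand is not given in the sources used here, so that the origin of these reads is uncertain. None of these 6 genes passed. Such overlap was 7.02% for MUS81, with CFL1, and 9.68% for FANCI, with POLG.

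Genes of the same pathways outside the 39 were taken from a list of 79, of which 78 were in the table. Of these, 42 passed (53.8%), 22 higher and 20 lower, where 46.8% of all genes passed, with 22.0% higher and 24.8% lower. Of the 77 with a mean of at least 1 CPM 54.5% passed, which was under the 62.1% of all genes of that level. Without HG1, 46 passed (59.0%), 26 higher and 20 lower, where 48.2% of all genes passed, with 22.8% higher and 25.4% lower. Of the 77 genes of at least 1 CPM 59.7% then passed, again under the 65.0% of all genes of that level. The 6 with the smallest adjusted p were RFWD3, BABAM2, RAD1, USP1, RECQL5 and ABRAXAS1. RFWD3, a ubiquitin ligase that clears RPA from damaged forks, rose from 38.3 to 68.5 CPM (log2 change 0.82 ± 0.03, adjusted p = 2.78e-06). USP1, which removes ubiquitin from FANCD2, rose from 46.6 to 76.2 CPM (log2 change 0.70, adjusted p = 1.04e-05). RECQL5, a helicase of the RecQ family, fell from 58.4 to 28.3 CPM (log2 change -1.03, adjusted p = 4.08e-05).

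In the BRCA1-A complex, which was singled out after its values were seen, 3 of 5 subunit genes fell, where 24.8% of all genes and 32.6% of genes of at least 1 CPM were lower. Beside BABAM1, BABAM2 (log2 change -0.88 ± 0.04, adjusted p = 4.68e-06), its binding partner, was at 28.4 to 30.5 CPM in the low and 14.9 to 16.5 CPM in the high glucose libraries. ABRAXAS1, the scaffold that binds the BRCT repeats of BRCA1, was at 12.1 to 15.1 and 5.71 to 6.38 CPM (log2 change -0.98 ± 0.08, adjusted p = 6.03e-05). In both genes every high glucose library lay under every low glucose library. BRCC3, the deubiquitinase of the complex, was at 36.4 and 40.4 CPM (log2 change 0.15, adjusted p = 0.060). It passed as higher without HG1 (0.18, adjusted p = 0.0337) and with the length trend removed (0.18, adjusted p = 0.0213). UIMC1, the ubiquitin-binding subunit, was at 36.4 and 39.4 CPM (adjusted p = 0.239). BRCC3 and UIMC1 were named after their values were seen.

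**Figure D5:**
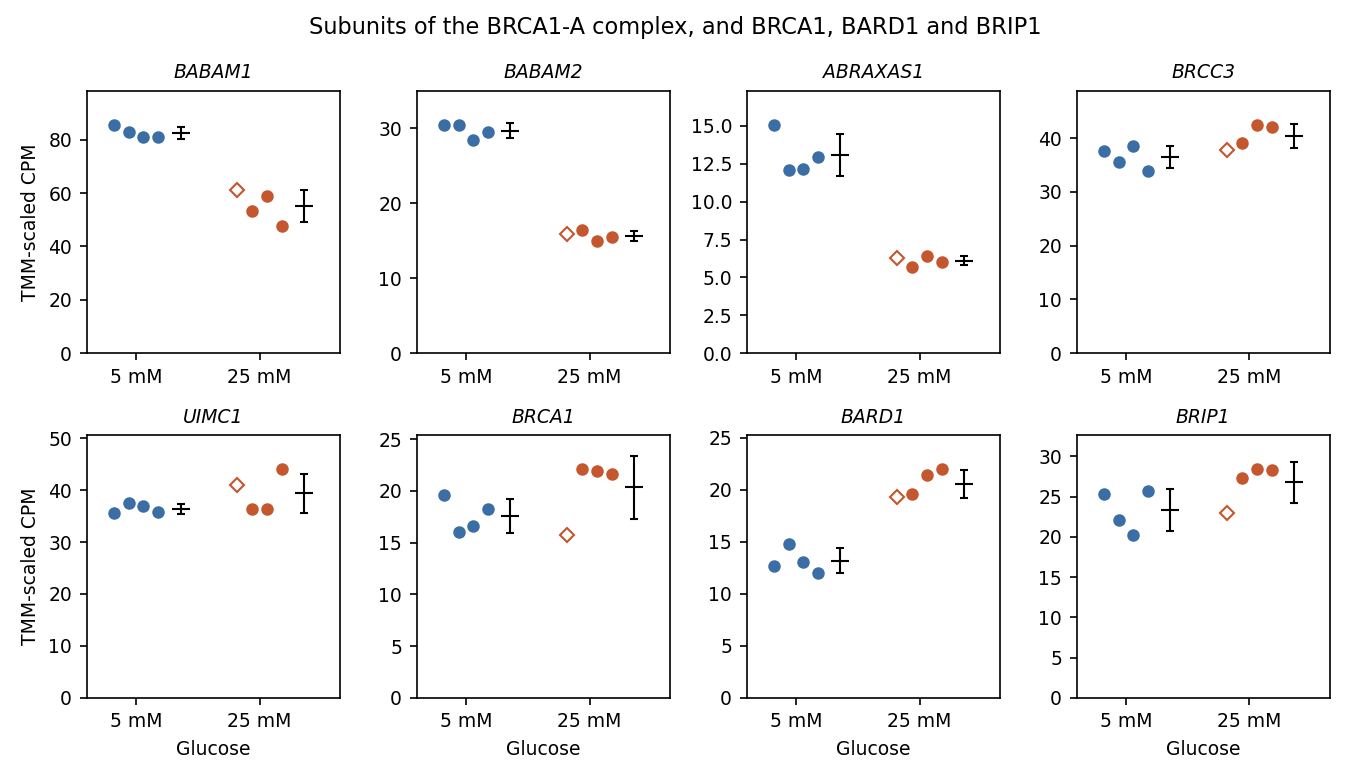
Panels give the TMM-scaled CPM by library, as above, for the 5 subunit genes of the BRCA1-A complex and for BRCA1, BARD1 and BRIP1. BABAM1, BABAM2 and ABRAXAS1 were lower in all 4 high glucose libraries, BARD1 was higher in all 4, and the groups of the other 4 genes overlap.

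The checkpoint genes around ATR also went both ways. RAD1, a subunit of the 9-1-1 clamp that brings TOPBP1 to damaged DNA, was at 74.7 to 79.3 CPM at low and 119 to 129 CPM at high glucose (log2 change 0.68 ± 0.03, adjusted p = 8.56e-06). Other genes of this branch were named after their values were seen. The further clamp subunits RAD9A (log2 change 0.67, adjusted p = 0.00108) and HUS1 (0.27, adjusted p = 0.0308) rose, as did CLSPN (0.71, adjusted p = 0.00235), the mediator of CHEK1, and CHEK1 (0.38, adjusted p = 6.48e-04), the kinase downstream of ATR. ETAA1, the alternative activator of ATR, fell (log2 change -0.37, adjusted p = 0.00128). ATRIP, the partner of ATR, was at 5.28 and 5.37 CPM and RAD17, the clamp loader, at 34.3 and 32.6 CPM, and neither passed.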

How the data were processed

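RNA sequencing of MDA-MB-157 cells gave 8 libraries, 4 per glucose level, grouped by the labels. The authors deposited 1 table of CPM, scaled with TMM factors. The submitters' processing notes name edgeR and hg38, while the methods describe hg19 for tumors, so that the build, the counting tool and its use of strand are not established for this table. Low values were multiples of hundredths of a read, so counts were not recovered. Of 21077 lines, 18 pseudoautosomal Y copies, identical to their X copies, were left out. Depth was estimated as the sum of a library over the value of 1 read, and covers counting error only.

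Log2(CPM + 1) was fitted in limma 3.58.1 (R 4.3.3) with a group term and a mean-variance trend, and p-values were adjusted by Benjamini-Hochberg over 21059 genes. A log2 change on this scale understates the change of low genes. Genes are named with the value in each library for BRCA1, BRCA2 and the 14 listed genes of smallest adjusted p, and the other pathway list adds its first 6. The 39 genes, the lists and the rules were chosen with earlier results of these data known. Lengths, shared 31-base words and overlaps came from GENCODE 44 canonical transcripts, and positions from RefSeq (GRCh38.p14). The fit was also run on simulated data in which few genes changed and no library had a trend on transcript length. The libraries here differ in both respects, so that run cannot show how the fit performs on them. Alternatives changed the pseudocount, filter, scaling, length or GC trend, block, spread, threshold and libraries.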

Additional observations from a re-analysis of the deposited data

Results flagged for a closer look

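Of 90 groups of 4 libraries examined, 5 had 1 library whose gap to the nearest other exceeded Dixon's critical share of the range at the 95% level, where chance alone would give 4.5. For BRCA1 at high glucose HG1, at 15.7 CPM, lay apart from the other 3 at 21.6 to 22.1 CPM, with a gap of 0.924 of the range. RAD52 at high glucose had HG1 at 1.34 CPM against 2.58 to 2.80 CPM, a gap of 0.845. For RBBP8 at high glucose HG3 was at 53.3 CPM against 55.96 to 56.3 CPM, a gap of 0.899. RAD50 at low glucose had LG1 at 35.1 CPM against 33.4 to 33.6 CPM, a gap of 0.877, and FANCB at low glucose had LG2 at 6.05 CPM against 7.05 to 7.25 CPM, a gap of 0.833. Of these, BRCA1 is the gene whose call changed when the library was left out.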

How the results depend on the processing

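Of the 19 genes that passed, 18 passed in each of their alternatives at the threshold of 0.05 and kept their sign (RAD51B was not tested with the minimum of 5 CPM), and FANCI passed in 12 of 19. Of the 39 genes, 31 kept 1 sign throughout and 12 passed nowhere. The count of genes that passed was 18 to 22 over the alternatives at 0.05, and 28 at 0.3, of which 15 were higher. The median log2 change of the 39 genes was 0.060 with the minimum of 5 CPM, 0.079 with quantile normalization, and -0.00786 to 0.0512 with 1 library left out, and it had no test. Genes that passed in some alternatives only, beside BRCA1, BRCA2 and RAD51C, were BRIP1 with the length trend removed (adjusted p = 0.0381), PALB2 with quantile normalization (0.0311) and without HG4 (0.0226), XRCC3 (0.00865) and FANCA (0.029) with the GC trend removed, and RAD52 with the minimum of 1 CPM (0.0455) and with the GC trend removed (0.0497).

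The sign turned in 8 genes, none of which passed. With median-of-ratios scaling the log2 change was 0.036 for MRE11, 0.0164 for BLM and 0.0159 for FANCC, and with an equal total per library it was 0.0193 for MRE11 and 0.00056 for BLM. Quantile normalization gave 0.0546 for MRE11, 0.0083 for RAD54L, 0.0511 for RAD54B, 0.11 for BLM and 0.0105 for EME1. With the GC trend removed it was 0.0149 for RAD54L, -0.034 for WRN, 0.021 for FANCC and -0.0752 for FANCL. With 1 library left out the ranges were -0.0576 to 0.0428 for MRE11, -0.20 to 0.0512 for RAD54B, -0.0645 to 0.0194 for BLM, -0.0034 to 0.0976 for WRN, -0.0721 to 0.0127 for FANCC and -0.0656 to 0.0775 for FANCL. The cause was not tested.

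Deviations of libraries with the same replicate number had correlations of 0.07, -0.03, 0.01 and -0.04. These values cannot decide whether the numbers pair libraries, since there are only 4 a group and HG1 deviates along transcript length. With the replicate block 18 of the 39 genes passed, 8 of them higher, where 8921 of all 21059 genes passed. With the block and without HG1, 15 of the 39 passed. The block then leaves LG1 without a counterpart, so that it adds nothing to the comparison. The share of all genes in that fit is not given here, so the lower count cannot be read as a trait of these genes. Depth did not limit detection of the 39 genes, and 4 libraries a group limit what can be said of changes under about the width of the 95% intervals.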
